A study of Homo sapiens with 14 samples.

Results

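The loci of 10 SOX genes other than SOX2 were examined for SOX2 and BAF binding in naïve and primed human embryonic stem cells (hESCs). The genes were SOX3, SOX4, SOX5, SOX6, SOX8, SOX9, SOX11, SOX13, SOX15 and SOX21, which are 10 of the 20033 protein-coding genes annotated by GENCODE release 44 on hg38. Each locus was the gene body with 60 kb on either side, and every peak touching that window was counted. Chromatin immunoprecipitation with sequencing (ChIP-seq) had been carried out on WIBR3, an established hESC line, grown as naïve cells in 5i/L/A medium or as primed cells in conventional medium. The antibodies recognised BRG1 (SMARCA4) and BRM (SMARCA2), which are the alternative ATPases of the BAF chromatin remodelling complex, its scaffold subunit BAF155 (SMARCC1), and SOX2. There are 14 samples in the labels, namely 4 inputs and 10 immunoprecipitations with 1 peak list each. Both SOX2 libraries of a state gave lists with identical coordinates and were counted as 1 sample, and the remaining groups had a single library, so replicate error could not be measured and no test between the states was possible.

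SOX proteins bind DNA through an HMG box that recognises short sites with a CATTGT or CTTTGT core and bends the helix. They are sorted into groups by the similarity of that box. SOX3 belongs with SOX2 to group B1, and SOX21 to group B2, whose members repress genes that B1 factors activate. Of the genes examined, SOX4 and SOX11 belong to group C, SOX5, SOX6 and SOX13 to group D, and SOX8 and SOX9 to group E. SOX15 is the only human gene of group G. In pluripotent cells SOX2 pairs with OCT4 on a composite element that joins a SOX site to an octamer-type site. The other family members are known mainly from later tissues, among them the nervous system, cartilage, neural crest and gonad.

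SOX2 peaks lay at 7 of the 10 loci. The 4 sites called in both states are shown first, because they are where SOX2 was called at a paralogue locus under both culture conditions. Each sequence is the 120 bp of hg38 around the summit of the naïve peak, written on the plus strand, with matches to a SOX core (CATTGT or CTTTGT, both strands) or to the OCT4-SOX2 composite element (up to 2 mismatches, both strands) in capitals.
SOX9, chr17:72151157-72151276: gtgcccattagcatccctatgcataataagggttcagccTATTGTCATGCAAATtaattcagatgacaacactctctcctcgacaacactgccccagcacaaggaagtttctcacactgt
SOX4, chr6:21654168-21654287: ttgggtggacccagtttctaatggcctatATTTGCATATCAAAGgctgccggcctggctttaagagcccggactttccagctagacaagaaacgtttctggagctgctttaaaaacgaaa
SOX5, chr12:23757659-23757778: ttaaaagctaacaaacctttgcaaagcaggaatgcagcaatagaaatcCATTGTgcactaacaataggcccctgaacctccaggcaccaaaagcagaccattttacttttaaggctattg
SOX6, chr11:16403273-16403392: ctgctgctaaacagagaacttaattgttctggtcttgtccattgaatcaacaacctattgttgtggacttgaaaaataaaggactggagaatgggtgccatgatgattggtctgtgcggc
The SOX9 and SOX4 windows each held a composite element with 1 mismatch, the SOX5 window held 1 SOX core and no composite element, and the SOX6 window held neither. These windows lay outside annotated UTRs. The naïve and primed summits were 5 bp apart at SOX5, 26 bp at SOX9, 43 bp at SOX6 and 101 bp at SOX4.

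The primed SOX2 peaks in the top 10% of their list that had no naïve SOX2 partner are shown next, around the primed summit and with the same marking.
SOX21, chr13:94706686-94706805: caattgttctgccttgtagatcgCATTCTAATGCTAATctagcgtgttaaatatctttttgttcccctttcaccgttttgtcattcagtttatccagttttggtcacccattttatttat
SOX11, chr2:5726339-5726458: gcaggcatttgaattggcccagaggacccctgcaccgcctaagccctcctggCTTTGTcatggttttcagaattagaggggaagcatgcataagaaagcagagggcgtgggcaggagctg
SOX13, chr1:204108764-204108883: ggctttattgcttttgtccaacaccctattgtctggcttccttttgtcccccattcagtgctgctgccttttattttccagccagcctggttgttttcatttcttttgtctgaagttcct
SOX13, chr1:204065404-204065523: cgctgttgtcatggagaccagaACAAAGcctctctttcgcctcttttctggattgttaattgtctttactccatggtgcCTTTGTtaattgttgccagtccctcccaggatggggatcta
SOX5, chr12:24015148-24015267: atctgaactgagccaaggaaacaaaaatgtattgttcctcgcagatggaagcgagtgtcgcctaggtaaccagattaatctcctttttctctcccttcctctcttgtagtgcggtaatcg
A composite element with 2 mismatches lay in the SOX21 window. The SOX11 window held 1 SOX core, the upstream SOX13 window 2, and the intronic SOX13 and SOX5 windows none. The 5 letters ATTGT, which were searched on both strands after these windows had been read, occurred in 13 of 20 primed summit windows of 120 bp (65%, exact Clopper-Pearson 95% interval 40.8 to 84.6) against 41.8% over all 9290 primed SOX2 peaks, and in 4 of 6 naïve ones against 47.3% of 1940. They occurred 2 or more times in 6 of the 20 primed windows (30%, interval 11.9 to 54.3), and in 9.42% of all primed windows. The windows that prompted this choice of letters are among those counted. The higher shares at the SOX loci are therefore not independent of the choice, and no conclusion is drawn from them. Intervals here and below cover counting error within these libraries only.

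Over the whole list, the naïve SOX2 list held 1940 peaks and the primed list 9290, on chromosomes 1 to 22, X and Y. The BRG1 lists held 57884 naïve and 15611 primed peaks, the BAF155 lists 62338 and 58352, and the naïve BRM list 17413. Read totals were not used, and list lengths are given without regard to depth. By BAF regions, marker loci mostly went with the state labels. All 6 naïve marker genes (KLF17, DPPA5, TFCP2L1, SUSD2, DNMT3L and KLF5) had more naïve-only than primed-only BAF regions, as did 66.1% of all protein-coding genes. The reverse held for 5 of 6 primed markers (ZIC2, SFRP2, DUSP6, THY1 and OTX2, but not CD24) and for 21.2% of all genes. By BRG1 peaks alone, 0 of the 6 primed markers had more primed than naïve peaks, 2 had more naïve and 4 had equal numbers.

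Primed SOX2 peaks outnumbered naïve ones at the SOX loci, 20 to 6. The primed peaks lay at SOX21 (1 peak), SOX4 (2), SOX11 (1), SOX5 (9), SOX6 (2), SOX13 (4) and SOX9 (1), and the naïve peaks at SOX4 (2), SOX5 (2), SOX6 (1) and SOX9 (1). No SOX2 peak of either state was called at SOX3, the closest relative of SOX2 in this set, nor at SOX8 or SOX15. A naïve SOX2 peak was found at 4 of the 10 loci, against 13.2% of all protein-coding genes in windows built the same way, and a primed one at 7 of 10, against 42.6%. More primed than naïve peaks were called at 5 loci (SOX21, SOX11, SOX5, SOX6 and SOX13), a pattern shared by 37.8% of all genes. No locus had more naïve than primed SOX2 peaks, which was the case for 4.25% of genes. Of the SOX2 peaks of both lists, 76.9% at the SOX loci were primed (20 of 26, exact Clopper-Pearson 95% interval 56.4 to 91) and 82.7% genome-wide, so the state balance at these loci was not apart from that of the lists.

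**Figure D1:**
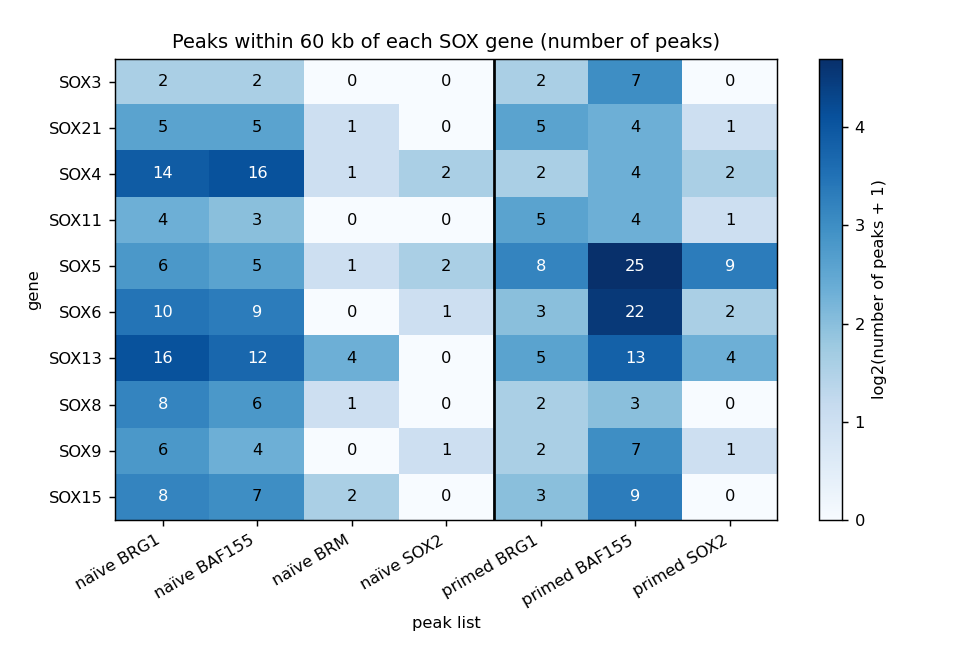
Number of peaks within 60 kb of each SOX gene (rows, by SOX group) in each of the 7 peak lists (columns, naïve left and primed right of the line), with shading on a log2(number + 1) scale. SOX5 has 9 primed SOX2 peaks and 25 primed BAF155 peaks, SOX4 has 16 naïve BAF155 peaks, and SOX3, SOX8 and SOX15 have no SOX2 peak in either state.

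Window length set part of these counts. The SOX5 and SOX6 windows span 1153 kb and 893 kb, whereas the other 8 span 122 to 175 kb. Without SOX5, the loci held 11 primed and 4 naïve SOX2 peaks, and without SOX5 and SOX6, 9 and 3. Among the 563 genes whose windows reach 500 kb, 80.5% had a primed SOX2 peak, 31.3% a naïve one, and 3.91% had at least 9 primed peaks as SOX5 did. Per 100 kb, the 10 windows together held 0.647 primed SOX2 peaks against 0.301 for the genome, and 0.194 naïve peaks against 0.0628. The genome values are over whole chromosome lengths, and the density over all gene windows was not computed.

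Strong peaks were frequent among them. The fold enrichment over input, a linear ratio given by the authors' peak caller, had a median of 10.7 for the 20 primed peaks (range 4.64 to 20.9) against 6.73 for the whole list, and 8 of the 20 (40%, interval 19.1 to 63.9) were in the top 10% of the list. For the 6 naïve peaks the median was 11.4 (range 4.56 to 22.8) against 7.26, and 3 of the 6 were in the top 10%. When the primed list was shortened to its 1940 strongest peaks, 11 primed peaks remained at the SOX loci. These lay at SOX21 (1), SOX11 (1), SOX5 (5), SOX6 (1), SOX13 (2) and SOX9 (1), while both primed peaks at SOX4 dropped out and left that locus with 2 naïve and 0 primed peaks.

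**Figure D2:**
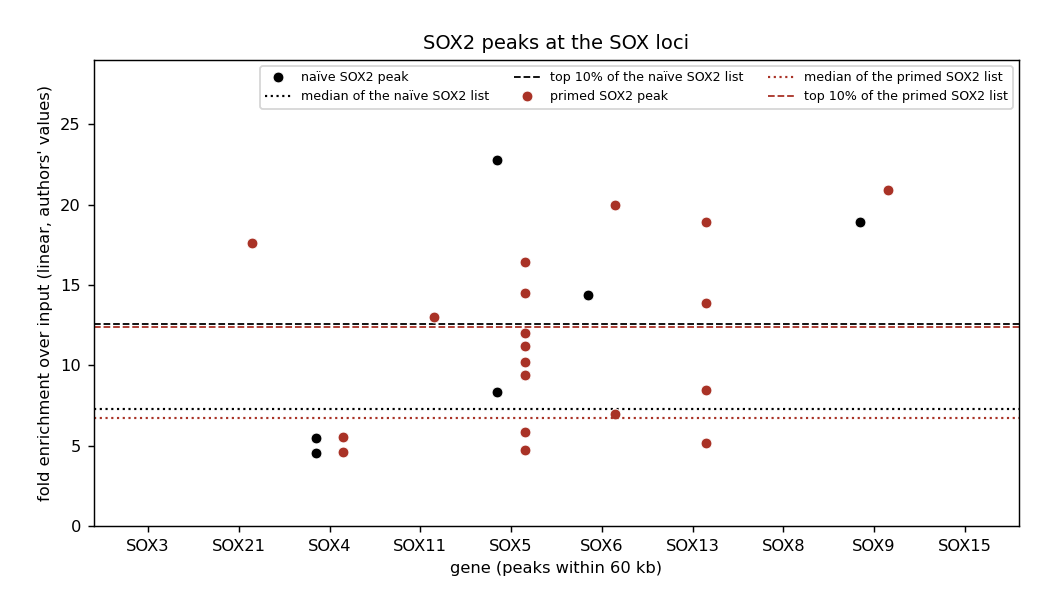
Fold enrichment over input of every SOX2 peak (points, black naïve and red primed) at each SOX gene, with the median (dotted) and the top 10% limit (dashed) of each whole list as lines. The highest naïve point is the SOX5 intron site at 22.8 and the highest primed point the SOX9 site at 20.9, whereas all 4 points at SOX4 lie below both medians.

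Binding at the group B genes differed between the members. At SOX3 (chrX:140502985-140505069, minus strand), the naïve BAF lists gave 2 BRG1 and 2 BAF155 peaks, and the primed lists gave 2 and 7. The primed BAF155 peaks covered 5.68 kb of the window against 0.898 kb in naïve cells. Its strongest naïve BAF155 peak (fold 3.93) lay 19.8 kb upstream of the 5′ end and its strongest primed one (fold 4.02) 20.7 kb upstream. The naïve peak ended at position 140524927 and the primed peak began at 140525031, so these neighbours counted as 1 naïve-only and 1 primed-only region although they almost touched. The strongest naïve BRG1 peak lay in the SOX3 exon (fold 2.95) and the strongest primed one 2.81 kb upstream (fold 3.28).

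SOX21 (chr13:94709622-94712545, minus strand) carried 1 primed SOX2 peak and no naïve one. The peak lay 5.74 kb downstream of the 5′ end, with a fold of 17.6 and rank 269 of 9290. Its midpoint was in an annotated exon, within the bodies of the non-coding genes SOX21-AS1 and LINC00391. A primed BAF155 peak of 11910 bp spread over the gene and this site, and primed BRG1 was called there too. In naïve cells the same stretch held separate BAF peaks, among them the strongest BRG1 peak of the locus in the SOX21 exon (1.24 kb, fold 3.42) beside a BRM peak (1.35 kb, fold 3.25). The strongest naïve BAF155 peak lay 12.1 kb downstream (fold 3.31). Both primed lists had their strongest peak of the locus 49.1 kb upstream, at a promoter of SOX21-AS1 (BAF155 fold 5.29, BRG1 fold 4.53), where no naïve BAF peak was called. BRG1 was called 5 times in each state, and BAF155 5 times in naïve and 4 times in primed cells, but the covered length of BAF155 was 3.63 kb in naïve and 13.4 kb in primed cells.

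The group C genes SOX4 and SOX11, both coding for factors of neuronal and progenitor differentiation, showed different patterns. SOX4 (chr6:21593751-21598619, plus strand) was the locus richest in naïve-only BAF binding, with 16 naïve-only, 1 primed-only and 3 common regions. It had 14 naïve and 2 primed BRG1 peaks and 16 naïve and 4 primed BAF155 peaks. Of the naïve-only regions, 10 were intergenic, 4 lay in an intron of the non-coding gene ENSG00000283480 and 2 at promoters. Only those 15.8, 17.9 and 22.3 kb downstream of the 5′ end held a naïve peak with a −log10 q of at least 3. The remaining naïve-only regions rested on weaker peaks. The strongest naïve peaks of BRG1 (fold 3.56), BAF155 (fold 3.19) and BRM (fold 3.29) fell together at 15.7 to 16.4 kb downstream of the 5′ end. Within their lists, the BRG1 peak ranked 7011 of 57884, the BAF155 peak 16106 of 62338 and the BRM peak 8358 of 17413. In primed cells the strongest BAF155 peak (fold 3.15) was 6161 bp wide and spanned the gene, with the strongest BRG1 peak (fold 3.27) 1.80 kb downstream of the 5′ end.

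SOX2 peaks at SOX4 were weak in both states. The naïve peaks lay 5.72 kb downstream of the 5′ end (fold 5.48, rank 1644 of 1940) and 60.4 kb downstream (fold 4.56, rank 1860). The primed peaks lay 0.178 kb upstream, at the SOX4 promoter (fold 4.64, rank 8250 of 9290), and at the same 60.4 kb site (fold 5.57, rank 6774). Neither the promoter peak nor the naïve peak at 5.72 kb held a SOX core. The promoter peak was the only SOX2 peak within 1 kb of the annotated 5′ end of any of the 10 genes.

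At SOX11 (chr2:5692384-5701385, plus strand) naïve and primed BAF lists were of similar length, with 4 and 5 BRG1 peaks and 3 and 4 BAF155 peaks. Its BAF regions comprised 3 common ones, 1 primed-only and 0 naïve-only. It carried 1 primed SOX2 peak, 33.9 kb downstream of the 5′ end at a promoter of the non-coding gene ENSG00000236106, with a fold of 13.0 and rank 826. The strongest primed BAF155 peak lay over it (34.0 kb, fold 5.13), and BRG1 and BAF155 were called there in both states. The strongest BRG1 peaks of both states (naïve fold 3.07, primed fold 4.23) and the strongest naïve BAF155 peak (fold 2.84) were at the SOX11 promoter. Primed BAF155 covered 12.6 kb of the window and naïve BAF155 2.03 kb.

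**Figure D3:**
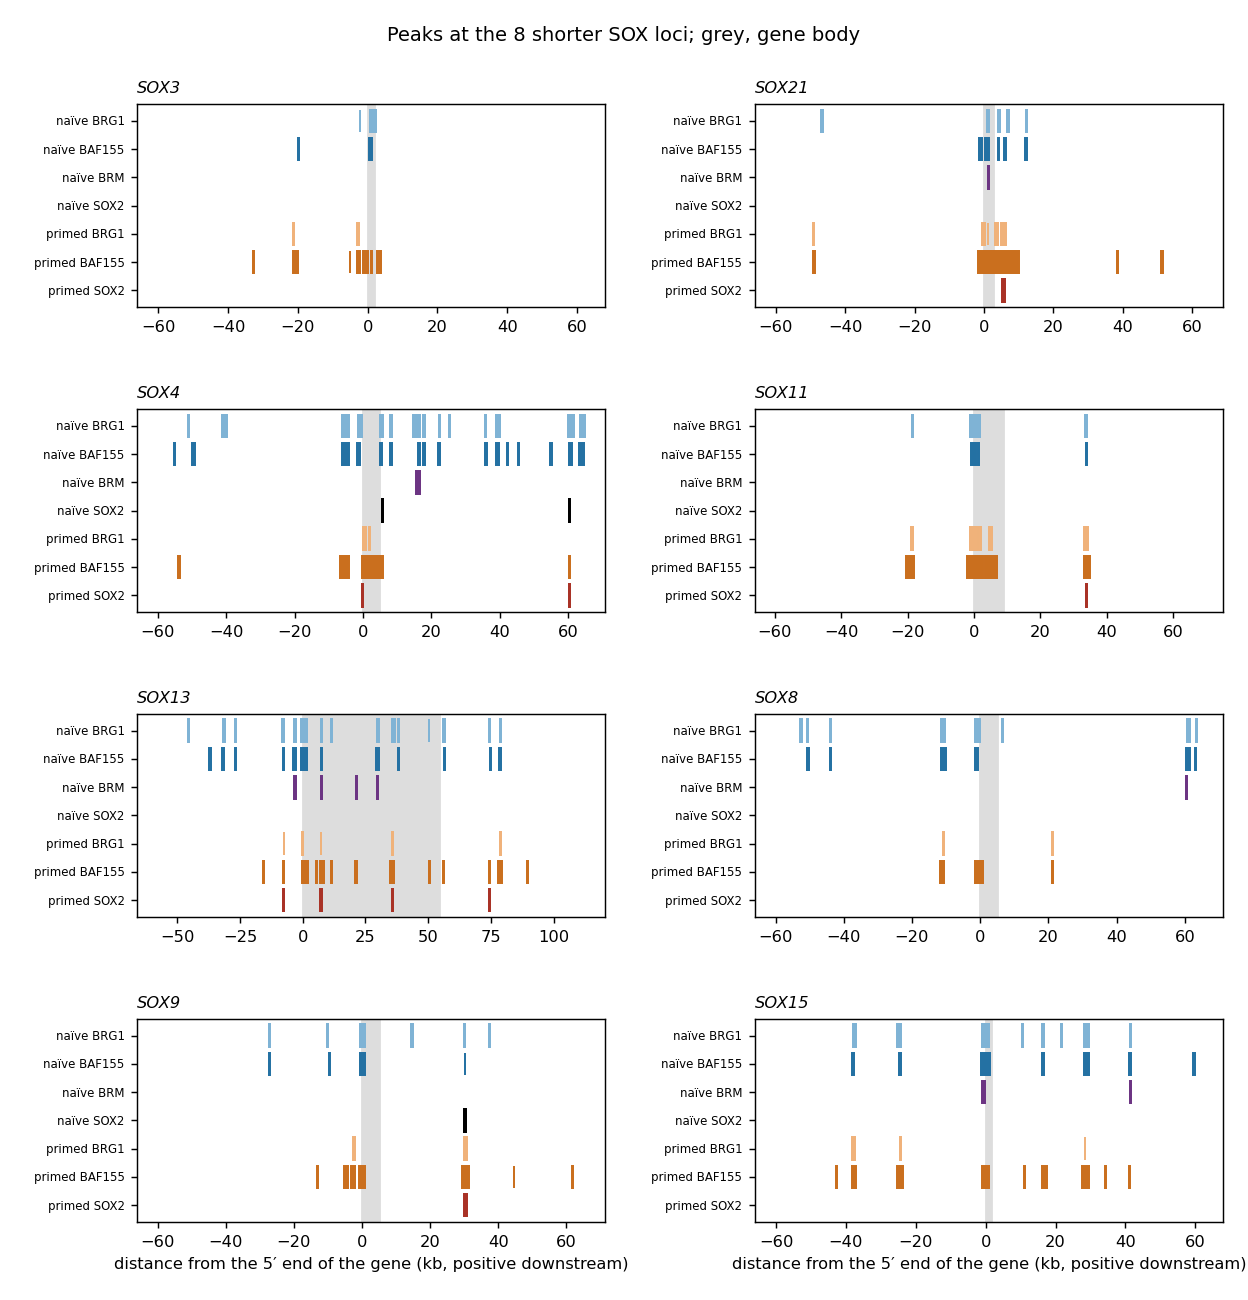
Position of each peak (coloured blocks, 1 row per list) at the 8 shorter SOX loci, against the distance from the 5′ end of the gene in kb, with the gene body in grey. Narrow peaks are drawn at a minimum line width. SOX4 shows 16 naïve BAF155 blocks along the whole window, SOX21 a primed BAF155 block of 11910 bp over the gene, and SOX9 a SOX2 block of both states at about 30.2 kb.

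Group D contains the long genes SOX5 and SOX6, which code for partners of SOX9 in cartilage formation, and SOX13. SOX5 (chr12:23529504-24562544, minus strand) held 9 primed and 2 naïve SOX2 peaks. All 9 primed peaks were intronic and lay 332 to 922 kb from the 5′ end. The 5 strongest were at 805 kb (fold 16.4), 547 kb (14.5), 332 kb (12.0), 429 kb (11.2) and 346 kb (10.2), with the other 4 between 4.72 and 9.41. Each of the 9 overlapped a primed BAF155 peak, and 5 of them also overlapped a primed BRG1 peak. A naïve BAF region was present at 2 of the 9 (22.2%, interval 2.81 to 60), against 10 of the 11 primed SOX2 peaks at the other loci (90.9%, interval 58.7 to 99.8). The share over all primed SOX2 peaks was 41.6%.

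The strongest naïve SOX2 peak of any SOX locus lay 805 kb into SOX5 (chr12:23757486-23757920, fold 22.8) and ranked 18 of 1940. It was called in the primed list too, with BRG1 and BAF155 in both states and a BRM peak in naïve cells. That BRM peak was weak (fold 2.51, rank 17282 of 17413), whereas the BRG1 peak there was the strongest naïve BRG1 peak of the locus (fold 3.61). The other naïve SOX2 peak lay 0.091 kb from an internal SOX5 transcription start site, 977 kb from the 5′ end (fold 8.34). It had no naïve BAF region and no primed SOX2 peak, but a primed BAF155 peak was called over it.

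BAF155 peaks along SOX5 were mainly primed, numbering 5 in naïve and 25 in primed cells and covering 3.88 kb and 19.2 kb. BRG1 gave 6 naïve and 8 primed peaks, which covered 3.94 kb and 3.37 kb. Primed-only regions made up 22 of the 26 regions called in 1 state alone (84.6%, interval 65.1 to 95.6), and 16 of the 22 were intronic. The strongest primed BAF155 peak (429 kb, fold 5.52) coincided with a SOX2 peak, and the strongest primed BRG1 peak (310 kb, fold 4.93) did not. The strongest naïve BAF155 peak lay beyond the 3′ end of the gene (1090 kb, fold 3.19).

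SOX6 (chr11:15966449-16739591, minus strand) shared 1 SOX2 site between the states, 336 kb into the gene at an internal SOX6 promoter. The fold was 14.4 in naïve cells (rank 122 of 1940) and 20.0 in primed cells (rank 150 of 9290). This site also carried the strongest naïve BRG1 (fold 4.45), naïve BAF155 (4.39) and primed BAF155 (5.53) peaks of the locus. The second primed SOX2 peak lay upstream of SOX6 in an intron of PLEKHA7, at −44.7 kb from the 5′ end (fold 6.99), and it was the only SOX2 peak of the 10 loci without a BAF region in either state. BRG1 peaks numbered 10 in the naïve list and 3 in the primed list, the strongest of these lying at a C11orf58 promoter inside the SOX6 gene body (126 kb, fold 3.84), while BAF155 peaks numbered 9 and 22. Primed-only regions were 17 of 24 state-specific regions (70.8%, interval 48.9 to 87.4), of which 10 were intronic, 4 at promoters and 3 in exons.

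**Figure D4:**
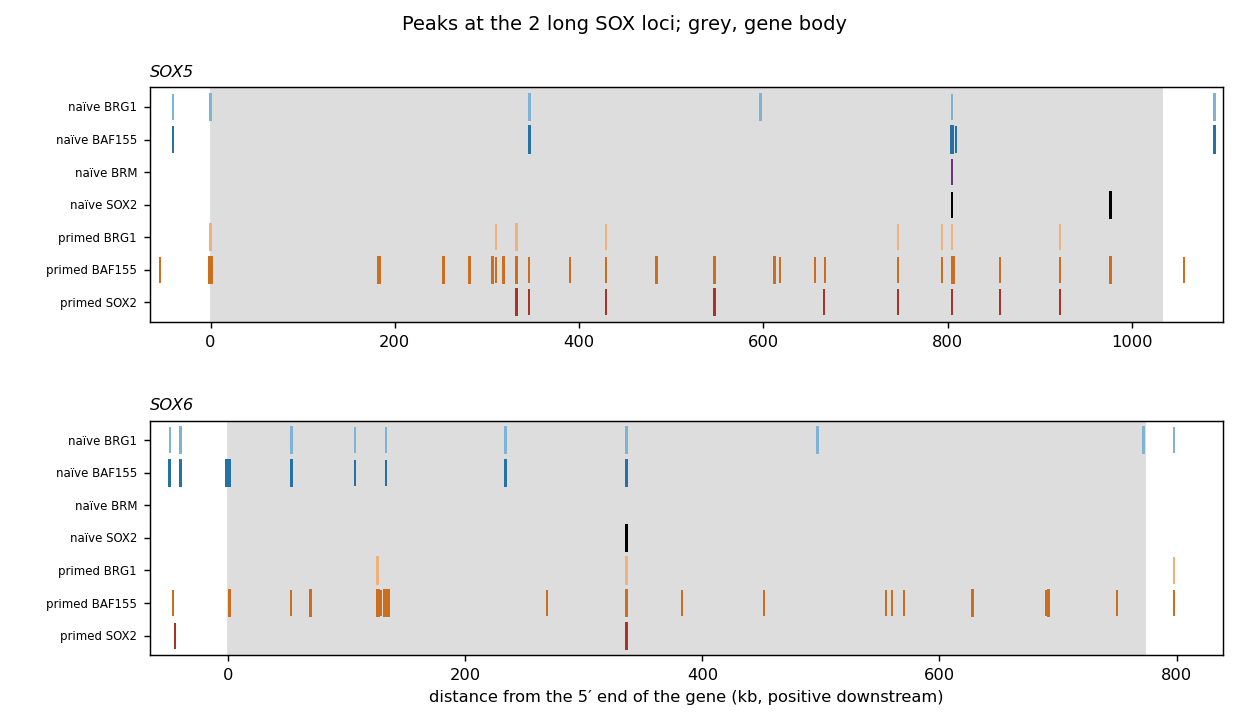
Position of each peak (coloured blocks, 1 row per list) at SOX5 and SOX6, against the distance from the 5′ end of the gene in kb, with the gene body in grey and narrow peaks drawn at a minimum line width. Primed BAF155 blocks (25 at SOX5, 22 at SOX6) are spread through both genes, and the SOX2 sites shared by the states lie at 805 kb in SOX5 and 336 kb in SOX6.

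SOX13 (chr1:204073115-204127743, plus strand) had 4 primed SOX2 peaks and no naïve one, although a naïve BAF region was called at all 4 sites. The strongest lay in a SOX13 intron 35.7 kb from the 5′ end (fold 18.9, rank 198), under the strongest primed BAF155 (35.6 kb, fold 6.14) and BRG1 (fold 4.14) peaks of the locus. A second lay 7.61 kb upstream of the gene (fold 13.9, rank 632). The third was intronic at 7.29 kb (fold 5.17, rank 7452), where the strongest naïve BAF155 peak (7.42 kb, fold 4.04) and a BRM peak (7.43 kb, fold 3.68) were also called. The fourth lay at the ETNK2 promoter, 74.6 kb from the SOX13 5′ end (fold 8.50). SOX13 also held 4 of the 10 BRM peaks of the set, the strongest at 29.9 kb (fold 4.00) with the strongest naïve BRG1 peak of the locus (fold 3.86).

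The group E genes differed in SOX2 binding. SOX9 (chr17:72121020-72126416, plus strand), the sex determination and cartilage regulator, carried 1 SOX2 site called in both states, 30.2 kb downstream of the 5′ end within an intron of SOX9-AS1. Its fold was 18.9 in naïve cells (rank 40 of 1940) and 20.9 in primed cells (rank 131 of 9290). The strongest naïve BAF155 (fold 3.17), primed BAF155 (4.70) and primed BRG1 (3.59) peaks of the locus all lay on it, whereas the strongest naïve BRG1 peak was 27.1 kb upstream (fold 3.82). SOX9 had 6 naïve and 2 primed BRG1 peaks and 4 naïve and 7 primed BAF155 peaks.

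No SOX2 peak was called at SOX8 (chr16:981770-986979, plus strand), and 6 of its 9 BAF regions were naïve-only. BRG1 gave 8 naïve and 2 primed peaks and BAF155 6 and 3. Its window overlaps LMF1, and the strongest naïve BRG1 peak lay at the LMF1 promoter (−10.9 kb from the SOX8 5′ end, fold 3.37). The strongest naïve BAF155 (63.1 kb, fold 3.66) and the only BRM peak (60.6 kb, fold 3.28) lay nearer to SSTR5. The strongest primed BAF155 peak spanned the start of SOX8 (midpoint −0.408 kb from the 5′ end, fold 3.55). Its midpoint lay within the non-coding gene CEROX1 and nearer to an LMF1 start site, 0.044 kb away. The strongest primed BRG1 peak lay 21.2 kb downstream of the SOX8 5′ end (fold 3.76).

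SOX15 (chr17:7588178-7590094, minus strand) lies in a gene-dense stretch, and 11 of its 12 BAF regions lay nearer to the start of another gene. All 6 common regions were at promoters. BRM was called at the SOX15 start, within the MPDU1 gene body (0.568 kb upstream, fold 3.63), the only BRM peak within 1 kb of the 5′ end of a member, and again at TNFSF12 (fold 2.90). The strongest naïve BRG1 peak was at the SOX15 start (fold 3.19) and the strongest naïve BAF155 peak at TNFSF12 (fold 3.89). In primed cells the strongest BAF155 peak lay at SAT2 (fold 3.99) and the strongest BRG1 peak at FXR2 (fold 3.68).

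Across the 10 loci, BRG1 gave 79 naïve and 37 primed peaks, BAF155 69 and 98, and BRM 10 naïve and 0 primed peaks, the primed BRM list holding 167 peaks in the whole genome. At least 1 peak of both BRG1 lists and both BAF155 lists was found at every SOX locus. Of all protein-coding genes, 93.7% had a naïve BRG1 peak, 93% a naïve BAF155 peak, 72% a primed BRG1 peak and 93.7% a primed BAF155 peak. BRM was found at 6 of the 10 loci, against 70.2% of genes. BRG1 peaks were more numerous in primed cells at SOX5 and SOX11, a pattern found at 2.51% of genes, and equal in number at SOX3 and SOX21. At the other 6 loci they were more numerous in naïve cells, as at 87.2% of genes. BAF155 peaks were more numerous in primed cells at 7 loci (30.6% of genes) and in naïve cells at SOX21, SOX4 and SOX8 (54.8% of genes).

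Because 1 broad peak can span several narrower ones, the covered length was set beside these counts. Primed over naïve covered length was 2.04 for BAF155 at the SOX loci (102 against 49.9 kb) and 1.05 over the whole lists. For BRG1 it was 0.366 (19.8 against 54.1 kb) and 0.183. By gene, the BAF155 ratio was 6.33 at SOX3, 6.21 at SOX11, 4.95 at SOX5, 3.69 at SOX21, 3.33 at SOX9, 2.59 at SOX6, 1.42 at SOX15, 1.11 at SOX13, 0.861 at SOX8 and 0.776 at SOX4. The BRG1 ratio exceeded 1 at SOX21 (1.66) and SOX11 (1.59) and was lowest at SOX4 (0.0871).

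BRG1 and BAF155 peaks of a state were merged into BAF regions, and a region with no partner covering 25% of either region in the other state was called state-specific. At the 10 loci, 51 regions were naïve-only, 62 primed-only and 36 common. With peaks limited to a −log10 q of at least 3, 16 naïve-only and 36 primed-only regions were left. Primed-only regions made up 54.9% of the state-specific ones (62 of 113, interval 45.2 to 64.2) against 38.6% genome-wide. This share varied with the gene, from 5.88% at SOX4 (1 of 17) to 84.6% at SOX5. More primed-only than naïve-only regions were present at SOX3, SOX21, SOX11, SOX5 and SOX6 (21.2% of genes), more naïve-only regions at SOX4, SOX13 and SOX8 (66.1% of genes), and equal numbers at SOX9 and SOX15. Leaving out SOX4 lowered the naïve-only count to 35. Without SOX5 and SOX6, the primed-only count fell to 23 and the naïve-only count to 40. Over all called peaks, the primed excess in region number therefore rested on the 2 long genes. Whether it also did so at a −log10 q of at least 3 was not computed.

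**Figure D5:**
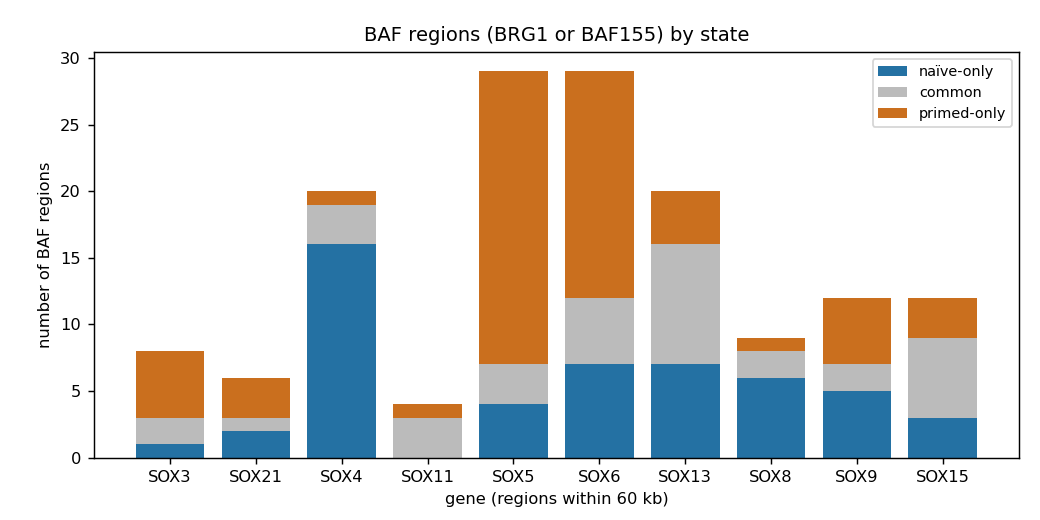
Number of naïve-only (blue), common (grey) and primed-only (orange) BAF regions within 60 kb of each SOX gene, as stacked bars. Naïve-only regions dominate at SOX4 (16 of 20) and primed-only regions at SOX5 (22) and SOX6 (17).

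SOX2 and BAF coincided at most of these sites under the 25% overlap rule. Among the 20 primed SOX2 peaks, 19 overlapped primed BAF regions (95%, interval 75.1 to 99.9; 88.4% of all primed SOX2 peaks), 12 had a primed BRG1 peak (60%, interval 36.1 to 80.9; 41.9% of all) and 12 overlapped naïve BAF regions (60%; 41.6% of all). The 95% share was 50% where an overlap of 50% of both regions was required. Naïve BAF regions coincided with 5 of the 6 naïve SOX2 peaks (83.3%; 93% of all naïve peaks), and primed BAF regions with all 6 (61.2% of all naïve peaks). Conversely, 12 of the 36 common BAF regions held a primed SOX2 peak (33.3%, interval 18.6 to 51; 14% genome-wide), as did 7 of the 62 primed-only regions (11.3%, interval 4.66 to 21.9; 13.4% genome-wide). BRM was called at 9 of the 92 naïve BAF regions, a share of 9.78% (interval 4.57 to 17.8) against 20.4% genome-wide. A naïve SOX2 peak had a primed partner at 4 of 6 sites (47.9% of all naïve peaks), and a primed peak had a naïve partner at 4 of 20 (10% of all primed peaks).

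In 200 bp at the peak midpoint, a SOX core was present in 2 of 6 naïve peaks (33.3%, interval 4.33 to 77.7; 59% of all naïve peaks) and in 11 of 20 primed peaks (55%, interval 31.5 to 76.9; 59.5% of all). The 2 naïve peaks were both at SOX5, and the 11 primed peaks were at SOX5 (5), SOX13 (3), SOX11, SOX6 and SOX9 (1 each). The composite element was present in 3 of 6 naïve and 4 of 20 primed peaks, against 22.4% and 12.1% of the lists. Of the promoters in RefSeq, 24.5% held a SOX core in 300 bp, a different window length. A match is a description of the letters and not a measured binding site.

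Of the 9 other SOX genes in the same windows, 5 had a primed SOX2 peak (SOX2 with 7, SOX1, SOX12 and SOX14 with 2 each, and SOX10 with 1) and 2 a naïve one (SOX2 with 2 and SOX30 with 1). SOX7, SOX17 and SOX18 had neither. Together the 9 genes held 14 primed and 3 naïve SOX2 peaks, and BRM was called at 6 of the 9, 21 times in all. Of all protein-coding genes, 42.6% had a primed SOX2 peak, 13.2% a naïve one and 70.2% a BRM peak.

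Genes with the most similar binding were sought for SOX3 and SOX11 by the mean absolute difference of log2(peaks per 100 kb + 1) over the 7 lists. USP27X (0.06), SMC3 (0.07) and TMEM30B (0.10) were nearest to SOX3, and MGAT1 (0.11), ZFP62 (0.13) and OCM2 (0.14) to SOX11. The measure includes all 7 lists, so the likeness in each of them follows from the choice.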

How the data were processed

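WIBR3 hESCs were profiled by ChIP-seq. Per the study's methods, reads were trimmed, mapped to hg38 with bowtie2 (version 2.3.4 per the submitters' processing notes), freed of duplicates with samtools (0.1.19) or PICARD, and peaks were called with MACS2 against input, as narrow peaks for SOX2 (paired-end reads) and broad peaks for the BAF subunits (single-end reads). FastQC 0.10.1 is also named in the processing notes. Whether SOX2 libraries were pooled before calling is not given in the sources used here.

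The deposited lists give, besides positions, a score, the fold enrichment (ratio of ChIP to input, linear), and the p-value and q-value as −log10, all from the authors' peak caller. The deposited score repeats the −log10 q-value on a larger scale and was not used further. Positions alone were deposited for primed BRM and for the second SOX2 libraries. The lowest −log10 q was 1.00 in the BAF lists and 1.31 in the SOX2 lists.

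Autosomal (1 to 22), X and Y peaks were counted in gene windows (GENCODE 44, flank 60 kb), and no peak passed an hg38 chromosome end. A peak had a partner where 25% of either was covered. A peak with its midpoint up to 1 kb from an annotated start site was placed at a promoter. Shares carry exact Clopper-Pearson 95% intervals, which cover counting error only. Read depth was not used. Python 3.11.15, numpy 2.4.6, pandas 2.3.3 and scipy 1.17.1 were used, and the counting code was tested on simulated data. Members, lists and alternatives were chosen with earlier results of these data known. Named for each gene were every SOX2 peak (the 5 strongest of a state where there were more) and the strongest BRG1, BAF155 and BRM peak of each list. Alternatives were a flank of 20 kb, peaks nearest to the member's start site, a −log10 q of at least 3, lists of equal length, an overlap of 50% of both regions, and other motif windows.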

Additional observations from a re-analysis of the deposited data

How the results depend on the processing

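Of 44 alternative values for 9 results, 33 stayed within 1.5 times the count, or within the interval of the share, and 11 did not. With lists of equal length, 11 primed SOX2 peaks remained of 20. With a flank of 20 kb, 3 loci had more primed than naïve SOX2 peaks instead of 5, and 23 naïve-only BAF regions were left of 51. At a −log10 q of at least 3, 16 naïve-only and 36 primed-only BAF regions (of 62) and 5 BRM peaks (of 10) were left. The share of primed SOX2 peaks that overlapped a primed BAF region was 95% in the main setting. It was 100% with the 20 kb flank, with peaks nearest to the member and with lists of equal length. This share was 50% when an overlap of 50% of both regions was required. With whole peaks searched, 85% of the primed SOX2 peaks held a SOX core instead of 55%. The window of 120 bp at the summit was chosen after seeing the data and gave 50% for primed and 16.7% for naïve peaks. By construction, these settings start from fewer peaks, require more overlap, or search more or less sequence. Leaving out either SOX2 library changed nothing, because the lists were identical: 6 naïve and 20 primed peaks, 5 loci and 95% in each case. No paired analysis was possible because the result comes from no test and each group held 1 distinct list. Sites without a peak may still bind the protein below the peak caller's limit.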
